A study of Homo sapiens with 24 samples.

Results

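The genes described here are 40 identity genes of epithelial and mesenchymal cells, taken by name from a list, of 16742 genes listed in at least 1 of the 4 comparison tables of the series. They comprised 33 epithelial genes and 7 mesenchymal genes. All 40 were listed in at least 1 table, and all 40 reached a mean of at least 10 normalized counts, the minimum used here, in at least 1 table. The mRNA had been sequenced from 8 cultured lines with 3 libraries each, 24 libraries in all, in 2 backgrounds. HCT116 is a human colon carcinoma line with a modal number of 45 chromosomes, and RPE1 is a line of human retinal pigment epithelium made immortal with telomerase (hTERT), with a modal number of 46. HCT116 5/4, with 4 copies of chromosome 5, was paired with HCT116, and HCT116* 8/3 c7, with 3 copies of chromosome 8, with HCT116 H2B-GFP. RPE1 5/3 12/3, with 3 copies each of chromosomes 5 and 12, was paired with RPE1 hTERT, and RPE1* 21/3, with 3 copies of chromosome 21, with RPE1 hTERT H2B-GFP. The asterisk marks lines that stably express histone H2B fused to green fluorescent protein. HCT116 5/4 came from another laboratory, and the other aneuploid lines were made by transfer of a chromosome, except that the extra chromosome 12 of RPE1 5/3 12/3 was gained spontaneously. The name c7 marks a population grown from 1 cell, so that each background rests on few lines.

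Each table gives 1 mean per gene over 6 libraries, the 3 of the aneuploid line and the 3 of its parental line together. The values below are these means of normalized counts, with HCT116 5/4 and then HCT116* 8/3 c7 first, followed by RPE1 5/3 12/3 and then RPE1* 21/3, each table standing for an aneuploid line and its parental line together. They carry no error over replicates, no test of a difference could be made from them, and a change on gain of a chromosome is not described. Before tables were set against each other, they were scaled by factors between 0.825 and 1.113. A gene was called higher in a background when each of its 2 scaled means was at least 2-fold above each of the 2 of the other background. A gene named as not listed has no row in that table. The smallest means listed were between 1.98 and 3.36, but for each table between 2 and 16 genes that had means of 100 or more there had no row in the other table of the same background, so a missing row is not a measured 0.

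Epithelial cells are held together in sheets by tight junctions, which seal the space between neighbours, and by desmosomes, which tie the keratin filaments of one cell to those of the next. Transcription and splicing factors such as GRHL2, OVOL1, ESRP1 and ESRP2 keep this state. Mesenchymal cells lack such sheets, carry vimentin filaments, and express the repressors ZEB1, ZEB2 and SNAI2 and the factors TWIST1 and TWIST2, which shut down epithelial genes when cells pass from one state to the other.

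The 2 backgrounds differed in which of the genes reached the minimum. The libraries were made from whole cultures, in which fewer cells that express a gene and less of its RNA per cell cannot be told apart. Of the 40 genes, 36 reached a mean of 10 in each HCT116 table, whereas 25 did in the RPE1 5/3 12/3 table and 24 in the RPE1* 21/3 table. Of the 33 epithelial genes, 32 reached it in both HCT116 tables and 17 in both RPE1 tables. Of the 7 mesenchymal genes, 4 reached it in both HCT116 tables and all 7 in both RPE1 tables. Among the 32 epithelial genes that reached a mean of 10 in both HCT116 tables, 15 did so in neither RPE1 table, beside 9.95% of all 13570 genes that reached it in both HCT116 tables. In the other direction, 3 mesenchymal genes and 1 epithelial gene reached it in both RPE1 tables and in neither HCT116 table, or 4 of the 24 identity genes that reached it in both RPE1 tables, beside 5.97% of all 12923 such genes.

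**Figure D1:**
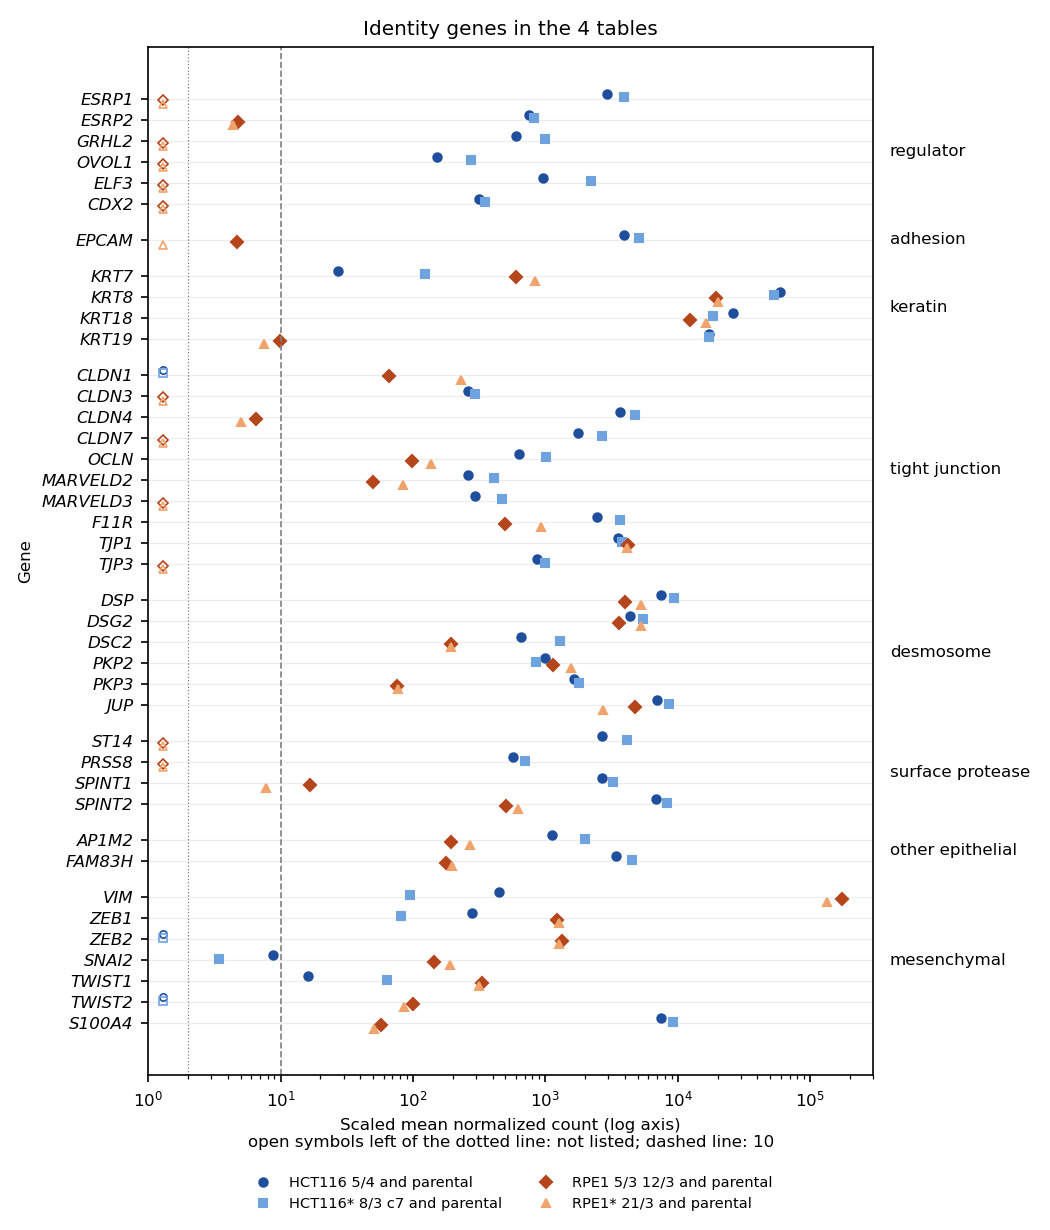
Scaled mean normalized count (log axis) of the 40 identity genes in the 4 tables, by role, with HCT116 tables in blue and RPE1 tables in orange and open symbols at the left edge for genes not listed. The surface protease group includes the inhibitors SPINT1 and SPINT2. The symbols of the backgrounds lie apart for most regulators and claudins and for VIM and S100A4, and close together for TJP1, KRT18, DSG2 and PKP2.

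The epithelial regulators reached the minimum in HCT116 and were under a mean of 10 or not listed in RPE1. All 6 reached a mean of 10 in both HCT116 tables and none in an RPE1 table. Of all 13570 genes that reached it in both HCT116 tables, 9.95% did so in neither RPE1 table. ESRP1, a splicing factor of epithelial cells, had means of 3143 and 4364 in the HCT116 tables and was listed in neither RPE1 table. Its relative ESRP2 had means of 805, 918, 4.81 and 3.59, a ratio of 173-fold between backgrounds that rests on RPE1 means below 10. GRHL2, a grainyhead factor that maintains junction genes, stood at 649 and 1107. OVOL1, a zinc finger repressor of mesenchymal genes, stood at 164 and 307, and ELF3, an ETS factor of epithelia, at 1033 and 2486. CDX2, which specifies intestinal epithelium, stood at 337 and 392. None of these 4 genes was listed in an RPE1 table. EPCAM, a cell adhesion molecule of epithelia, followed the regulators, with 4192 and 5683 in HCT116, a mean of 4.77 in the RPE1 5/3 12/3 table and no row in the RPE1* 21/3 table.

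The 4 keratins did not behave alike. KRT19, a keratin of simple epithelia at chr17:39679869-39684560 (gene spans are on GRCh37), had means of 18421 and 19183 in HCT116 and of 9.96 and 6.15 in RPE1. Its log2 ratio of 10.97 was the highest of the 12755 genes listed in all 4 tables whose scaled values averaged 10 or more, and its RPE1 mean of 9.96 lay just under the minimum. KRT8 and KRT18 form the filament pair of simple epithelia and ranked per kilobase of exon at percentile 98.3 or above in every table. KRT8 had means of 63210, 59668, 19618 and 16721 and was called higher in HCT116, at 2.83-fold. KRT18 had means of 28098, 20665, 12481 and 13422, and its ratio of 1.56-fold was not called. KRT7 (chr12:52626304-52645970) went the other way, with 29.1 and 137 in HCT116 and 613 and 693 in RPE1, a log2 ratio of -3.62, and was the only epithelial gene called in that direction. Reads of KRT8 and KRT18 are uncertain, since the genome holds many processed copies of both and the authors kept 1 location per read.

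Tight junction genes showed several patterns. One group reached a mean of 10 in HCT116 and was under it or not listed in RPE1. CLDN4 (chr7:73213872-73247020), one of the claudins that form the strands of the junction, had means of 3928, 5280, 6.62 and 4.13, a ratio of 728-fold. CLDN7 had means of 1906 and 2995, CLDN3 of 278 and 328, MARVELD3, a membrane protein of the junction, of 318 and 525, and TJP3, a scaffold protein, of 927 and 1115 in the HCT116 tables. These 4 were not listed in RPE1. Another group was present in both backgrounds and called higher in HCT116. OCLN, which encodes occludin, had means of 682, 1119, 100.0 and 113, at 6.88-fold. MARVELD2, which encodes tricellulin at the corners where 3 cells meet, had means of 280, 456, 50.4 and 69.1, at 5.06-fold. F11R, the junctional adhesion molecule A, had means of 2642, 4070, 503 and 771, at 4.40-fold, and 36.6% of its exon bases are shared with other genes. The other two genes followed neither pattern. TJP1, which encodes the scaffold ZO-1, had means of 3794, 4197, 4295 and 3407, with a log2 ratio of -0.20 that turned to 0.15 when tables were scaled by their sums and to 0.06 when scaled by upper quartiles. CLDN1 (chr3:190023496-190040235) was the reverse of the other claudins, listed in neither HCT116 table and at 67.4 and 191 in RPE1.

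All 6 desmosomal genes reached a mean of 10 in every table. Of these, 4 were not called, beside 76.5% of all genes, and the median log2 ratio of the 6 was 0.99, on the HCT116 side. DSP, the plakin that anchors keratin filaments, had means of 8070, 10473, 4074 and 4392 and a log2 ratio of 0.86. The desmosomal cadherin DSG2 had means of 4702, 6100, 3656 and 4324, with ranges of the 2 backgrounds that overlapped after scaling and a log2 ratio of 0.17. PKP2, a plakophilin, had means of 1065, 951, 1160 and 1297, with a log2 ratio of -0.54. JUP, plakoglobin, had means of 7568, 9538, 4787 and 2245, with a log2 ratio of 1.12 that ran from 0.58 to 1.66 over the pairings of tables. Called higher in HCT116 were 2 of the 6, or 33.3%, beside 11.6% of all genes with a ratio. These were the cadherin DSC2, with means of 710, 1443, 197 and 160 at 4.77-fold, and PKP3, with means of 1756, 2007, 76.9 and 64.1 at 22.4-fold.

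Of 4 membrane proteases and inhibitors, 2 had a ratio, and these 2 were called higher in HCT116, beside 11.6% of all genes with a ratio. The other 2 were listed only in HCT116 and reached a mean of 10 in both tables there. Of all genes that reached it in both HCT116 tables, 9.95% did so in neither RPE1 table. ST14, the protease matriptase, had means of 2893 and 4607 and PRSS8, the protease prostasin that acts with it, of 617 and 785, and neither was listed in RPE1. Of the Kunitz inhibitors of these proteases, SPINT1 had means of 2886, 3603, 16.8 and 6.42, at 259-fold, and SPINT2 of 7421, 9191, 516 and 511, at 13.5-fold. AP1M2, the subunit of the adaptor complex that sorts proteins to the basolateral membrane, had means of 1215, 2214, 197 and 221, at 6.57-fold. FAM83H, a protein that binds keratins, had means of 3683, 5062, 181 and 163, at 21.0-fold.

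Of the 7 mesenchymal genes, 5 had a ratio. Of these, 4 were called higher in RPE1, beside 11.9% of all genes with a ratio, and 1 higher in HCT116, beside 11.6%. The other 2 were listed only in RPE1. With SNAI2, 3 of the 7 reached a mean of 10 in both RPE1 tables and in neither HCT116 table. Among all genes that reached it in both RPE1 tables this share was 5.97%. VIM, vimentin, at chr10:17270240-17279592, had means of 481, 106, 175391 and 110087, a ratio of 735-fold, and antisense and other transcripts share 24.6% of its exon bases. Per kilobase of exon it ranked at percentile 100.0 and 99.9 of the genes in the RPE1 tables and at 45.1 and 16.7 in the HCT116 tables. ZEB1, the zinc finger repressor, had means of 302, 90.3, 1233 and 1052, 8.24-fold higher in RPE1. Its paralog ZEB2 was listed only in RPE1, at 1349 and 1052. SNAI2 had means of 9.48, 3.82, 147 and 156, 30.0-fold higher in RPE1, where the HCT116 means lay under 10. TWIST1 had means of 17.3, 71.1, 337 and 258, 10.1-fold higher in RPE1, and TWIST2 was listed only in RPE1, at 101 and 70.3. The exception was S100A4, a calcium binding protein often used as a marker of fibroblasts and of mesenchymal change. The gene lies at chr1:153516089-153522612. It had means of 7999 and 10305 in HCT116 and of 57.7 and 42.3 in RPE1, 154-fold higher in HCT116, where it ranked at percentile 99.7 and 99.8 per kilobase.

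Over the genes listed in all 4 tables, the calls went in opposite directions for the 2 classes. Of 20 epithelial genes with a ratio, 13 were called higher in HCT116, beside 11.6% of all 12755 genes, 1 was called higher in RPE1, beside 11.9%, and 6 were not called. Their median log2 ratio was 2.30, and that of all genes was 0.02. Of 5 mesenchymal genes with a ratio, 4 were called higher in RPE1 and 1, S100A4, higher in HCT116, with a median log2 ratio of -3.33. Of these, ESRP2, KRT19 and CLDN4 averaged under 10 in both RPE1 tables and SNAI2 in both HCT116 tables, so that they met the minimum only through the background in which they were high and had to differ, and SPINT1 averaged under 10 in 1 RPE1 table. Over genes that reached a mean of 10 in every table, a restriction added after the data were seen, 9 of 16 epithelial genes were called higher in HCT116, beside 9.52% of all 11939 genes, and 1 higher in RPE1, with a median of 1.82. Of 4 mesenchymal genes there, 3 were called higher in RPE1, beside 10.9%, and 1 in HCT116, with a median of -3.19. In the full set of genes, 49.5% of the calls were on the HCT116 side, a share of 67.5% when tables were scaled by their sums and of 63.4% when scaled by upper quartiles, with medians of all genes at 0.37 and 0.28. No identity gene changed its call under either scaling. The backgrounds also differ in tissue of origin, in transformation and in the donor, and what each contributes cannot be told apart here.

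**Figure D2:**
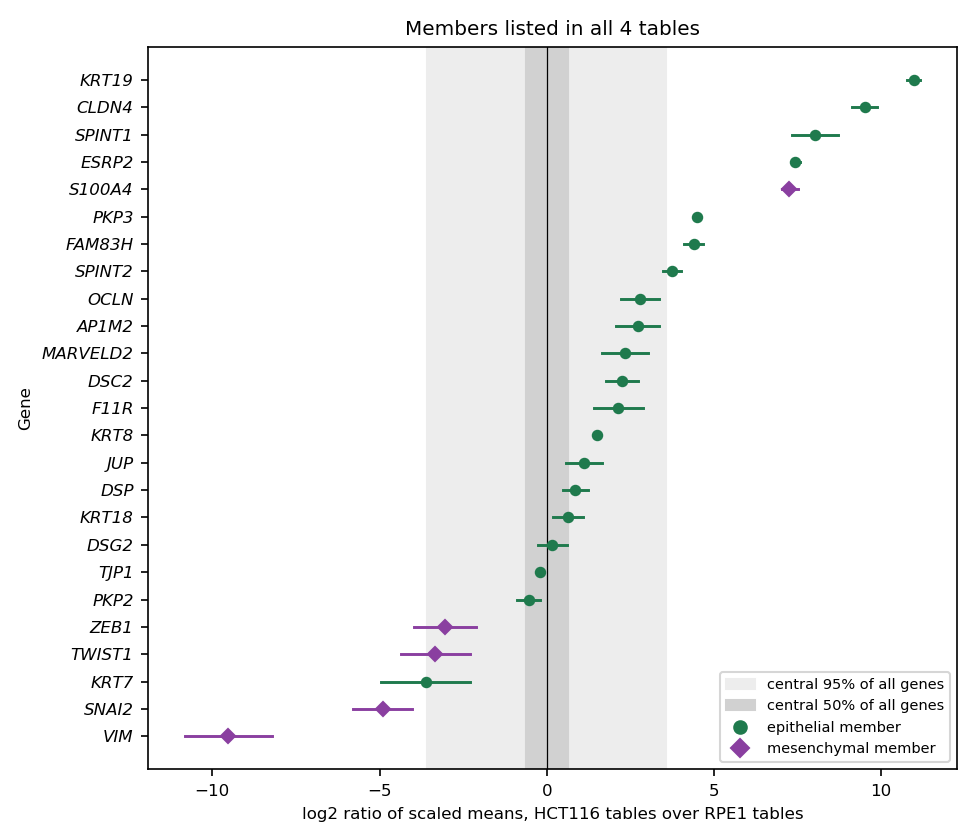
Log2 ratio of scaled means, HCT116 tables over RPE1 tables, for the 25 identity genes with a ratio, with the mean as a point and the smallest to largest pairing of tables as a bar. Dark and light grey mark the central 50% and 95% of the 12755 genes, from -0.61 to 0.63 and from -3.57 to 3.57. KRT7 is the epithelial gene among the mesenchymal genes at the bottom, and S100A4 is the mesenchymal gene among the epithelial genes at the top.

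An E-box with the letters CAGGTG is the sequence that ZEB and SNAI proteins bind, and their epithelial targets include junction genes, so the 250 bases before the start of each gene were searched for it on both strands. RefSeq (GRCh38.p14) promoters matched 22 of the 40 genes. The motif stood in 7 of 17 epithelial promoters, 41.2%, and in 2 of 5 mesenchymal ones, 40%, beside 17.5% of all 27305 promoters in the table. The epithelial genes with a match were ELF3, which was not listed in RPE1, OCLN, DSC2 and AP1M2, which were called higher in HCT116, and TJP1, DSP and DSG2, which were not called. The mesenchymal genes with a match were ZEB1 and S100A4. The grainyhead motif AACCGGTT stood in none of the 22 promoters and in 0.106% of all. Shown are the last 120 bases before the start of AP1M2, with 3 matches the promoter with the most among these genes, of OCLN, of TJP1, whose level was alike in the backgrounds, and of ZEB1. Each is read 5′ to 3′ on the strand of the gene, and capitals mark the E-box or, as CACCTG, its reverse complement.
AP1M2, chr19:10587313-10587432, minus strand: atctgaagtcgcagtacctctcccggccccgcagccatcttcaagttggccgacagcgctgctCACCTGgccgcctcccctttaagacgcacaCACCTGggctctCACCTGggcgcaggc
OCLN, chr5:69492427-69492546, plus strand: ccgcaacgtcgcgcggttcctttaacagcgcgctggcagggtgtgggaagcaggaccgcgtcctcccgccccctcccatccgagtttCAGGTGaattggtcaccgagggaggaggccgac
TJP1, chr15:29969050-29969169, minus strand: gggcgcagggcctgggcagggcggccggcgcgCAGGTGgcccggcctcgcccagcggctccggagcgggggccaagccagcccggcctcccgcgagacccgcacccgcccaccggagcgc
ZEB1, chr10:31318297-31318416, plus strand: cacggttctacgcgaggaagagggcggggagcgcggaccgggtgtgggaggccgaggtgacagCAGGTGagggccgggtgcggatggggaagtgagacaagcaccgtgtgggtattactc
A match describes the letters in this window and is not a measured site of binding.

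Within a table, ranks per kilobase of exon compared the 2 classes of genes directly. Among genes with means of 10 or more, the median percentile of the epithelial genes was 87.4 and 89.0 in the HCT116 tables and 46.9 and 58.1 in the RPE1 tables. The median of the mesenchymal genes was 34.7 and 20.4 in HCT116, over 4 genes, and 34.7 and 32.7 in RPE1, over 7 genes. The epithelial median was thus above the mesenchymal one by 52.66 and 68.6 percentile points in HCT116 and by 12.19 and 25.44 in RPE1. The order in RPE1 depended on the length used and on which genes were ranked. In the RPE1 5/3 12/3 table the difference turned to -3.39 with the longest transcript as length and to -1.81 with no minimum. In the RPE1* 21/3 table it fell to 10.72 with the longest transcript and to 7.85 with a minimum of 100, and in the HCT116* 8/3 c7 table to 35.11 with that minimum. Genes below the minimum or not listed were also placed at percentile 0, a choice made after the data were seen. The epithelial median then lay below the mesenchymal one in both RPE1 tables, with differences of -25.52 and -21.91 points. In the HCT116 tables it stayed above, by 77.96 and 77.29 points. In RPE1 the highest epithelial ranks were those of KRT18, at 98.9 and 99.3, and KRT8, at 98.3 in both tables. JUP stood at 93.6 and 87.7 and DSG2 at 81.7 and 87.8. OCLN at 9.2 and 10.8 and MARVELD2 at 9.67 and 13.1 were near the bottom.

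**Figure D3:**
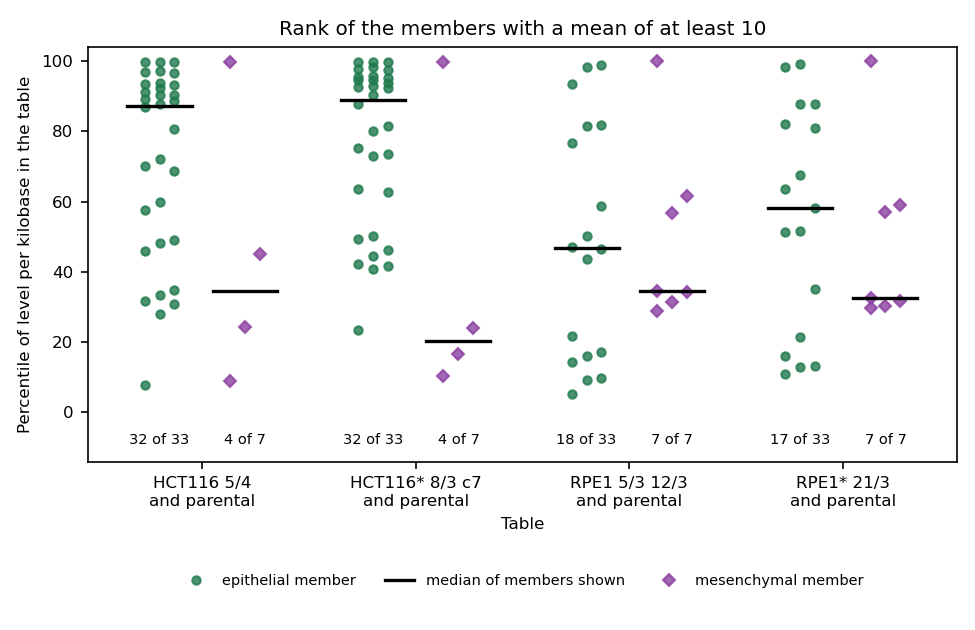
Percentile of the level per kilobase of exon among genes with means of 10 or more, in each table, for epithelial genes (circles) and mesenchymal genes (diamonds), with a bar at the median and the number of genes under each column. The epithelial medians are 87.4 and 89.0 in HCT116 and 46.9 and 58.1 in RPE1, and the highest diamond is S100A4 in HCT116 and VIM in RPE1.

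Between the 2 HCT116 tables, most epithelial genes stood higher in the HCT116* 8/3 c7 table. This was so for 29 of the 32 with a mean of at least 10, or 90.6%, beside 52.3% of all 13777 genes, and their median log2 ratio was 0.35 beside 0.02. Of 36 identity genes compared, 3 were higher by at least 2-fold, beside 1.92% of all genes. These were KRT7 by 2.19 on the log2 scale, ELF3 by 1.22 and the mesenchymal gene TWIST1 by 1.99. Lower by at least 2-fold were 2 of the 36, beside 3.66% of all genes, and both were among the 4 mesenchymal genes compared. These were VIM, with a log2 ratio of -2.23, and ZEB1, with -1.79. VIM was thus 4.68-fold and ZEB1 3.46-fold higher in the HCT116 5/4 table, and S100A4 differed by 0.32. Of the epithelial genes on chromosome 8, carried in 3 copies by HCT116* 8/3 c7, GRHL2 differed by 0.72, ESRP1 by 0.42 and FAM83H by 0.41. The mesenchymal gene SNAI2, also on chromosome 8, went the other way, with means of 9.48 in HCT116 5/4 and 3.82 in HCT116* 8/3 c7, both under 10. The genes on chromosome 5, carried in 4 copies by HCT116 5/4, were OCLN and MARVELD2, and both stood lower in the HCT116 5/4 table, with log2 ratios of 0.66 and 0.65 for the other table over it. The tables differ in the gained chromosome, in the H2B-GFP transgene and in the parental culture, and these cannot be told apart in a mean over both lines.

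Between the 2 RPE1 tables, 14 of 18 epithelial genes stood higher in the RPE1* 21/3 table, or 77.8% beside 53.5% of all 13278 genes, with a median log2 ratio of 0.40 beside 0.02. Among the identity genes, only CLDN1 was higher by at least 2-fold, with a log2 ratio of 1.80, beside 2.22% of all genes, and only SPINT1 was lower, with -1.09, beside 1.85%. Of the 7 mesenchymal genes, 2 stood higher and none passed 2-fold, with log2 ratios from -0.38 for VIM to 0.38 for SNAI2. JUP, at -0.80, was the lowest epithelial gene after SPINT1. KRT8, KRT18, KRT7 and PKP2 lie on chromosome 12, carried in 3 copies by RPE1 5/3 12/3, and stood at log2 ratios of 0.07, 0.40, 0.47 and 0.46. On chromosome 5, which that line also carries in 3 copies, OCLN stood at 0.47 and MARVELD2 at 0.75, both higher in the RPE1* 21/3 table. No identity gene on this list lies on chromosome 21.

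**Figure D4:**
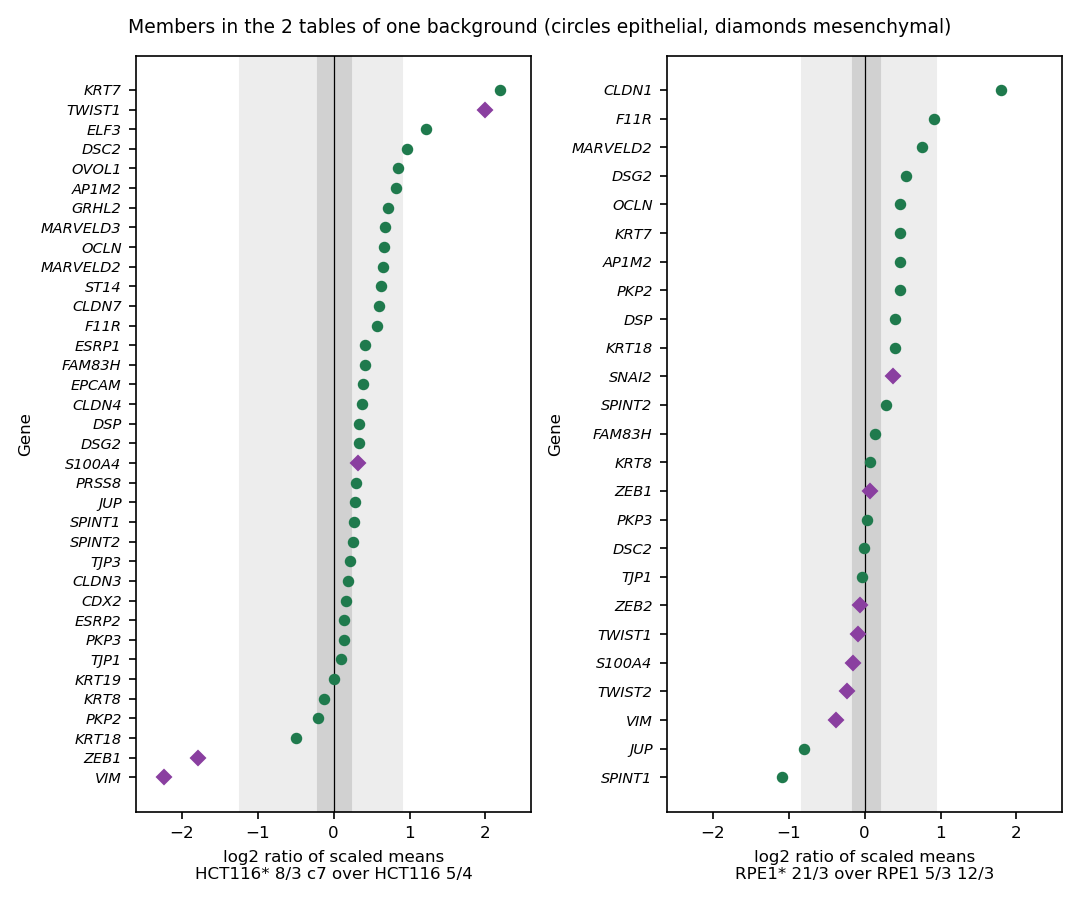
Log2 ratio of scaled means between the 2 tables of one background, HCT116* 8/3 c7 over HCT116 5/4 on the left (36 identity genes) and RPE1* 21/3 over RPE1 5/3 12/3 on the right (25), with dark and light grey for the central 50% and 95% of all genes. On the left, VIM and ZEB1 lie at the bottom at -2.23 and -1.79, and KRT7 and TWIST1 at the top at 2.19 and 1.99.

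Other genes of the same programmes, from lists of 20 epithelial and 22 mesenchymal genes outside the 40, were counted in the same way. Of the epithelial list, 19 genes reached a mean of 10 in both HCT116 tables and 10 in both RPE1 tables. Of the 19, 9 did so in neither RPE1 table, beside 9.95% of all genes that reached it in both HCT116 tables. Of 10 with a ratio, 8 were called higher in HCT116, beside 11.6% of all genes, and 1 higher in RPE1, beside 11.9%, with a median log2 ratio of 3.78. The highest ratios were those of LSR, a protein of tricellular junctions, at 6.79, MAL2, a protein of apical transport, at 6.69, and ERBB3, a receptor kinase, at 5.90, and KRT80 was the gene higher in RPE1, at -4.48. Of the mesenchymal list, 12 genes reached a mean of 10 in both HCT116 tables and 21 in both RPE1 tables. Of the 21, 6 did so in neither HCT116 table, beside 5.97% of all genes that reached it in both RPE1 tables. Of 14 with a ratio, 11 were called higher in RPE1, beside 11.9%, and 1 in HCT116, beside 11.6%, with a median of -5.12. Only 12 of these 14 reached a mean of 10 in every table. The rest averaged under 10 in the HCT116* 8/3 c7 table and were among the 11. TGFBI, an extracellular matrix protein, had a log2 ratio of -11.88 that rests on HCT116 means of 15.8 and 2.35 and ran from -13.88 to -9.89 over the pairings of tables. LOX, which crosslinks collagen, had one of -9.69 and FN1, fibronectin, one of -8.94, and FOXC1 was the gene higher in HCT116, at 3.63. Chosen after the values were seen, the cadherins of the 2 states also stood apart: CDH1, E-cadherin, had means of 1685 and 2534 in HCT116 and was not listed in RPE1, and CDH2, N-cadherin, had means of 5.02 in HCT116 5/4 and of 7558 and 7766 in RPE1, with no row in the HCT116* 8/3 c7 table.

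Markers of the tissues on the labels were met in part. Of 9 intestinal markers, 3, CDX2, HNF4A and KRT20, reached a mean of 10 in both HCT116 tables. All 3 did so in neither RPE1 table, beside 9.95% of all 13570 genes that reached it in both HCT116 tables. CDX2 is also one of the 40 genes. The other 6 reached it in no table, and of these CDX1 and VIL1 were listed in none. Of 9 markers of retinal pigment epithelium, 4 had a ratio. Of these, 2 were called higher in RPE1, beside 11.9% of all genes, and 2 higher in HCT116, beside 11.6%. MITF had means of 67.4, 62.0, 1439 and 1124, and OTX2 was listed only in RPE1, at 715 and 419. BEST1 had means of 7.5, 2.62, 42.7 and 41.3 and was called higher in RPE1, where the HCT116 means lay under 10. RLBP1 was listed only in RPE1, at 32.4 and 4.77. RPE65, a defining enzyme of that tissue, had means of 287, 194, 10.4 and 4.58 and was higher in HCT116, as was PMEL, and the pigment genes TYR, TYRP1 and DCT were listed in no table. Of 7 fibroblast markers, 4 of which also stand on the mesenchymal list, 5 reached a mean of 10 in both RPE1 tables and 1 in both HCT116 tables. Of the 5, 2 did so in neither HCT116 table, beside 5.97% of all genes that reached it in both RPE1 tables. The summed means of the 7, not scaled, were 745.4 and 870.2 in HCT116 and 23222.9 and 17513.2 in RPE1. THY1, at 10744 and 9700, PDGFRB, at 8600 and 4251, and COL1A1, at 3699 and 3479, made up most of the RPE1 sums. COL3A1 stood at 43.5 and 20.5 in RPE1 and DCN at 125 and 54.0. LUM stood at 6.4 in RPE1 5/3 12/3 and was not listed in RPE1* 21/3. COL1A2, a defining collagen, stood at 4.39 and 8.78 in RPE1. Of 3 markers of blood cells and endothelium, none reached a mean of 10 in both tables of a background, and their summed means were 21.4 and 10.9 in the RPE1 tables. The part of fibroblast markers in the ratios of the mesenchymal genes was not tested.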

How the data were processed

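The mRNA of 4 aneuploid lines and their 4 parental lines, 3 libraries each, was sequenced with 25000000 single reads of 100 bases per library, per the labels. Per the submitters' processing notes and the study's methods, adapters were removed with cutadapt, reads were mapped to hg19 with TopHat2 2.0.10 keeping 1 location per read, and counted per RefSeq gene with featureCounts 1.4.3. The authors then ran DESeq2 on each pair of lines. Each deposited table holds, per gene, the mean over its 6 libraries of counts divided by size factors, which is the signal the authors deposited and the only value used here. The other columns hold the authors' fold changes, standard errors, statistics and p-values, which were not used. The tables hold no value of a single library, so depth per library, spread and tests were not obtained, and no interval was set on a mean. Whether the libraries of 1 line were separate cultures is not stated.

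The 4 tables (15148, 15610, 14510 and 14292 genes) were scaled to each other by the median of ratios over genes that averaged 10 or more in each. A gene's ratio is the mean log2 value of the 2 HCT116 tables minus that of the 2 RPE1 tables, for 12755 genes listed in all 4 with a mean of the scaled values of at least 10. A call needed at least 2-fold in the same direction in all 4 pairings of tables. Exon lengths came from GENCODE on GRCh37, with 94.3% of genes placed, 1474 of them by an older symbol. Every gene of the list was named, and of the further programme genes at most the 3 highest and lowest ratios. CDH1 and CDH2, which had no ratio, were named in addition after the values were seen. The genes and lists were chosen with earlier results of these data known, so their direction is not independent evidence. Promoters came from RefSeq, and 18 of the 40 genes were not matched. Other scalings, filters, fold thresholds, lengths, a pseudocount and single pairs of lines were tried. The scaling and calls were tested on simulated data. Values were computed with pandas 2.3.3 and numpy 2.4.6 under Python 3.11.15 and drawn with matplotlib 3.10.9.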

Additional observations from a re-analysis of the deposited data

How the results depend on the processing

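No paired analysis was possible because the tables hold no values of single libraries, and for the same reason no replicate could be left out. Under another scaling, filter or pseudocount no identity gene that kept its ratio changed its call, and SNAI2 alone lost its ratio, with a minimum of 100. Of 199 recomputed ratios, 179 moved by less than the larger difference the gene itself showed between tables of one background, counted where both means were at least 10. The other 20 moved by more, and none that had been called changed sign. With a mean of at least 10 in every table, a setting chosen after seeing the data, the epithelial median was 1.82 instead of 2.30. The median log2 ratio of the mesenchymal genes was -4.04 in the lines without H2B-GFP and -3.97 in those with it, beside -3.33. Over all genes, 2252 instead of 1483 were called higher in HCT116 with tables scaled by their sums, and 2305 instead of 1515 higher in RPE1 in the lines with H2B-GFP. That last setting has a single pairing of tables, so a call there needs less than one over all 4 pairings. With a 4-fold threshold the counts of all genes higher in HCT116 and in RPE1 were 607 and 642, and with no fold threshold 5205 and 5036. Epithelial genes called higher in HCT116 were 15 in the lines without H2B-GFP, 14 in those with it and 9 at 4-fold, beside 13. Of the identity genes past 2-fold between HCT116 tables (5) and RPE1 tables (2), 3 and 1 were left with a mean of at least 100, and 2 and 0 at 4-fold. The percentile difference between classes in RPE1 5/3 12/3 reversed, from 12.19 to -3.39 with the longest transcript as length, to -1.81 with no filter and to -25.52 with genes below the minimum at percentile 0. In RPE1* 21/3 it moved from 25.44 to 10.72 with the longest transcript and to 7.85 with a mean of at least 100, and reversed to -21.91 with genes at percentile 0. It moved to 77.96 in HCT116 5/4 with genes at percentile 0, and to 35.11 in HCT116* 8/3 c7 with a mean of at least 100. Placing genes at percentile 0 was chosen after seeing the data. These settings change which genes are ranked or how length is counted, and the cause of a reversal was not tested further. A mean of a few normalized counts gives an imprecise ratio, which limits those of ESRP2, CLDN4, KRT19, SPINT1, SNAI2 and TGFBI.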
